A study of Mus musculus with 6 samples.

Results

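Translation factors are the proteins that start and extend protein synthesis on ribosomes, and 59 genes for them were followed among 14515 genes measured in resting naive CD8 T cells. The members were the rows of the count table whose symbol begins with Eif or Eef and a digit, together with Paip1, Paip2, Pabpc1 and Pabpc4; the eIF2 kinases, whose symbols begin with Eif2ak, were left out. The cells came from spleens of 3 mice with intact Lair1 (Lair1+/+, wild type) and 3 mice lacking it (Lair1-/-, LAIR-1-deficient), and the comparison asks what loss of this inhibitory collagen receptor does to untreated cells. From every mouse 100000 cells were sorted as positive for CD45, CD3, CD8 and CD62L and negative for CD44, and 1 library per mouse was sequenced from total RNA. The sources used here do not give the structure of the mutant allele, the strain, the age, the sex or the number of litters. No treatment is given for either genotype.

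In the first step of translation, the factor eIF2 carries the initiator transfer RNA to the small ribosomal subunit, and eIF2B reloads eIF2 with GTP after each round. The complex eIF4F binds the cap of the messenger RNA and unwinds its leader, eIF3 joins it to the small subunit, and poly(A)-binding protein links the tail to eIF4F. The elongation factors eEF1 and eEF2 then deliver transfer RNAs and move the ribosome. Naive T cells are small, make little protein while at rest and are known to raise translation quickly once their antigen receptor is triggered.

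The transcription start of a gene matters for this family because many messenger RNAs of the translation machinery begin with a C followed by an unbroken stretch of C and T, the terminal oligopyrimidine tract through which mTORC1 and the RNA-binding protein LARP1 control them. RefSeq start sites on GRCm38.p6 were found for 44 of the 59 genes, at 59 starts. A C at the start base followed by at least 4 letters that are all C or T, a run of at least 5 read on the gene's own strand, was present at 3 of these starts (5.08%). Over all 32851 starts in the table, 823 held such a run (2.51%). Some of the member starts were left out of the search but stayed in the total of 59. The 3 is therefore a lower bound, and 5.08% is not comparable with 2.51%. The sequences are those of the 3 members found with the run and of 2 further members, Eif3l and Eif2b1, with an unadjusted p under 0.05 between genotypes. Eif1a also had an unadjusted p under 0.05, but its sequence is not given. Each line gives 60 bases before the start and 15 bases from the start on, 5′ to 3′ on the gene's strand, and capitals mark the run.
Paip1, plus strand, chr13:119428540-119428614: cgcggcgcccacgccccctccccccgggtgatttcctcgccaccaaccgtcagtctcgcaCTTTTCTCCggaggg
Eif3f, plus strand, chr7:108934355-108934429: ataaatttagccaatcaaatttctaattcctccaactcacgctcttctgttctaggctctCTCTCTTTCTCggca
Eif2s3x, minus strand, chrX:94212637-94212711: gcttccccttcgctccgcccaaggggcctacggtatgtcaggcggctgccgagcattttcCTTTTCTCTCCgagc
Eif3l, plus strand, chr15:79075163-79075237: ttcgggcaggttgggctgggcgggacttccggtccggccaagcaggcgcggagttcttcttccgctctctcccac
Eif2b1, minus strand, chr5:124579117-124579191: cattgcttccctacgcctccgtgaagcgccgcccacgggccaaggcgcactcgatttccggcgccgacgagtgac

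The run was 9 bases long in Paip1 and 11 bases long in Eif3f and in Eif2s3x. A second RefSeq start of Paip1, at 119428902, does not begin with such a run. Eif3l and Eif2b1 have no run that begins at the listed start base. Members left out of the search included Eif1a, Paip2 and Eif4ebp3, so whether their starts hold a run was not tested. Start sites in the annotation can lie some bases away from the start used in T cells, so a missing run says only that these letters do not begin at this base.

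Library totals ranged from 7974206 to 9187017 counts in wild type and from 5519748 to 7296424 in Lair1-/- mice, so every Lair1-/- library was the shallower. Lair1, the gene that the mutant mice lack by label, had 58, 32 and 43 counts across wild type mice 1 to 3, and 2, 1 and 1 counts across the Lair1-/- mice. The 5 markers of CD8 T cells (Cd8a, Cd8b1, Cd3e, Cd3d and Cd3g) summed to 5219 to 5568 CPM (counts scaled to library size with edgeR's TMM factors) in wild type and 5117 to 5644 CPM in Lair1-/- libraries. The 4 naive T cell markers (Ccr7, Lef1, Tcf7 and Il7r) summed to 1972 to 2104 and 1784 to 2178 CPM. Of other cells, the 4 B cell markers in the table summed to 29.7 to 32.5 CPM in wild type and 25.3 to 32.3 CPM in Lair1-/- libraries. The 4 macrophage and monocyte markers summed to 1.57 to 2.14 and 1.07 to 4.24 CPM, the 3 CD4 T cell markers to 0.985 to 4.15 and 1.96 to 4.24 CPM, and the 2 erythroid markers to at most 2.08 CPM in any library. The 4 NK cell markers summed to 401 to 421 and 394 to 439 CPM, nearly all of it from Nkg7 and Eomes, which CD8 T cells also express; Ncr1 and Klrb1c were at most at 0.449 CPM. In bulk RNA, fewer cells of a type and less RNA per cell cannot be told apart.

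Translation factors as a family were close to equal in the 2 genotypes. Of the 59 members, 58 passed the filter on low counts and were tested, and 0 were called by edgeR's quasi-likelihood test at an adjusted p under 0.05. Over all 9565 genes tested, 1 was called (0.0105%), and that gene was Lair1. The adjusted p was 0.9999 for every member. In the same fit, the fold change (Lair1-/- over wild type, used throughout) was positive for 29 members and negative for 29, with a median log2 fold change of -0.002 beside 0.001 over all genes tested. All members together made up 1.78% to 2.04% of the scaled counts of a library. They summed to 19820, 18992 and 18116 CPM in wild type mice 1 to 3 and to 20358, 17763 and 18383 CPM in Lair1-/- mice 1 to 3, so the ranges overlapped.

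An unadjusted p under 0.05 was reached by 4 of the 58 members, or 6.9%, beside 3.25% of all genes tested. Of these, Paip1, Eif1a and Eif3l were higher in Lair1-/- cells and Eif2b1 was lower. The count was 2 with DESeq2, which kept Paip1 and Eif3l, and 4 with limma-voom; both tools also called 0 members. Over all 9565 genes tested, 217 reached it with DESeq2 and 302 with limma-voom. Leaving out 1 library at a time gave 1 to 4 members. The count was 1, Paip1 alone, without wild type mouse 2, beside 237 of 9700 genes tested. It was again 1, Paip1 alone, without Lair1-/- mouse 3, beside 443 of 9820 genes tested. Without Lair1-/- mouse 2 it was 2, beside 319 of 9792 genes tested. With mouse 1 of both genotypes left out, a fit added once the data were known, the count was 3, beside 440 of 9707 genes. Counts of members per library were at least 27 for all tested members but Pabpc4.

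**Figure D1:**
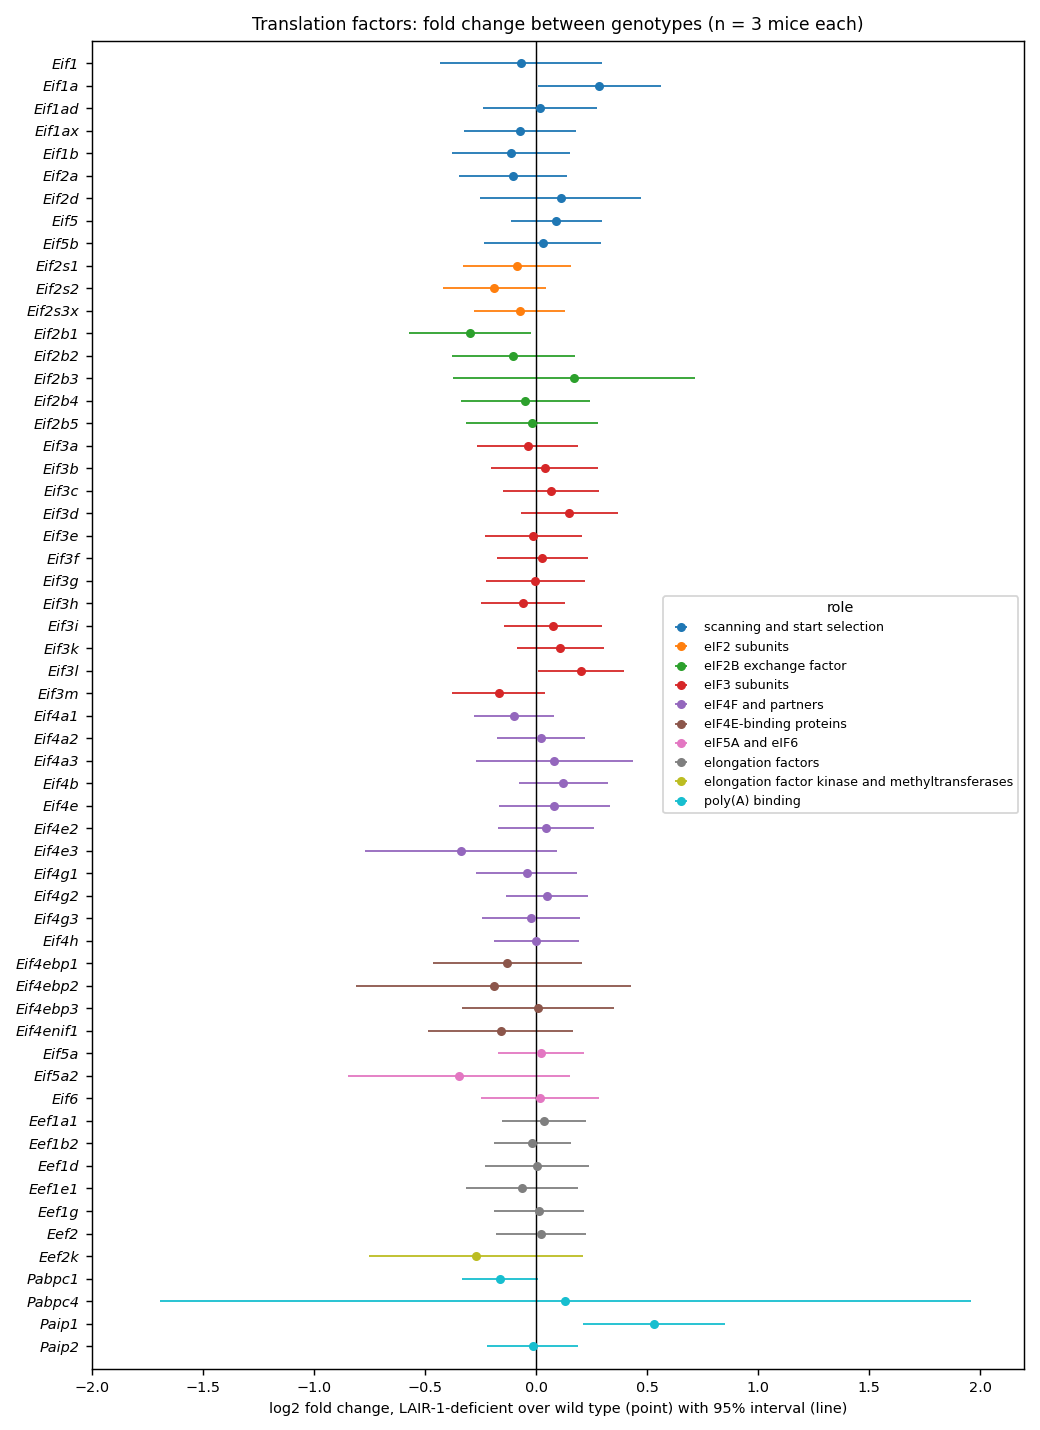
Log2 fold change of each of the 58 tested translation factors (horizontal axis; Lair1-/- over wild type, 3 mice each) with its 95% interval as a line, coloured by role. Most points lie near 0 with short lines; Paip1 lies farthest to the right at 0.53, and Pabpc4, at 0 to 23 counts per library, has the widest interval, from -1.70 to 1.96.

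The size of any difference was bounded narrowly for most members. For 16 of the 58 members (27.6%) the 95% interval excluded a difference of 1.2-fold either way, beside 7.68% of all genes tested. It excluded 1.5-fold for 51 members (87.9%, beside 63.2%) and 2-fold for 57 (98.3%, beside 85.9%). The exception to the last was Pabpc4. Eif4h, which stimulates the helicase eIF4A, had the smallest spread over the 6 libraries, from 166 to 179 CPM, and a fold change of 1.00 with an interval of 0.88 to 1.14. The median ratio of the highest to the lowest library was 1.24 over the 57 members with a count in every library, and 7 members exceeded 1.5.

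Complete separation of the groups was seen for 7 members. All 3 Lair1-/- libraries lay above all 3 wild type libraries for Paip1, Eif1a, Eif3l and Eif3d (6.9% of tested members, beside 4.30% of all genes tested). They lay below for Eif2b1, Eif4e3 and Pabpc1 (5.17% beside 4.09%). Scaling by RLE factors gave 4 and 3 members again, beside 4.30% and 4.04% of all genes tested. Scaling by library totals alone gave 4 and 4, beside 4.66% and 3.75%.

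Factors at the poly(A) tail held the largest fold change of the family. Paip1 binds poly(A)-binding protein and the helicase eIF4A and promotes translation; Paip2 competes with it and represses. Paip1 stood at 14.5, 16.3 and 16.8 CPM in wild type mice 1 to 3 and at 21.9, 25.6 and 21.6 CPM in Lair1-/- mice 1 to 3. The lowest Lair1-/- library was above the highest wild type library. Its counts before scaling were 115, 149 and 150 against 152, 144 and 158, so the groups overlapped before and were apart after scaling to library size. The means were 15.9 ± 1.22 and 23.0 ± 2.23 CPM (SD, n = 3 each), a fold change of 1.45 (95% interval 1.16 to 1.81), or 0.53 with an SE of 0.15 on the log2 scale. This did not pass the test (edgeR adjusted p = 0.9999). Its unadjusted p was under 0.05 in each of the 14 alternative fits, where the log2 fold change was 0.45 to 0.57 and the adjusted p 0.574 to 1.00. Those fits reuse the same libraries, and Paip1 was named for its small p in them, so they are not further support. The gene is protein coding and lies on the plus strand of chromosome 13 from 119428601 to 119458218 in GRCm38; no other gene there shares its exons and no near-identical transcript was found.

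Pabpc1, the main cytoplasmic poly(A)-binding protein and the partner of both PAIP proteins, differed in the other direction and also without a call. Its levels were 1726, 1864 and 1728 CPM in wild type and 1637, 1519 and 1592 CPM in Lair1-/- libraries. The nearest libraries of the groups, at 1726 and 1637 CPM, did not overlap. The fold change was 0.89, with an interval of 0.79 to 1.01. Paip2 was level, at 155 ± 6.06 and 153 ± 12.4 CPM, with a fold change of 0.99 (0.86 to 1.14). Pabpc4, a poly(A)-binding protein first found in activated T cells, was barely detected: it had 13, 6 and 23 counts in wild type and 0, 15 and 20 counts in Lair1-/- libraries. At that depth a 2-fold difference was not detectable, as the interval ran from 0.31 to 3.88.

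**Figure D2:**
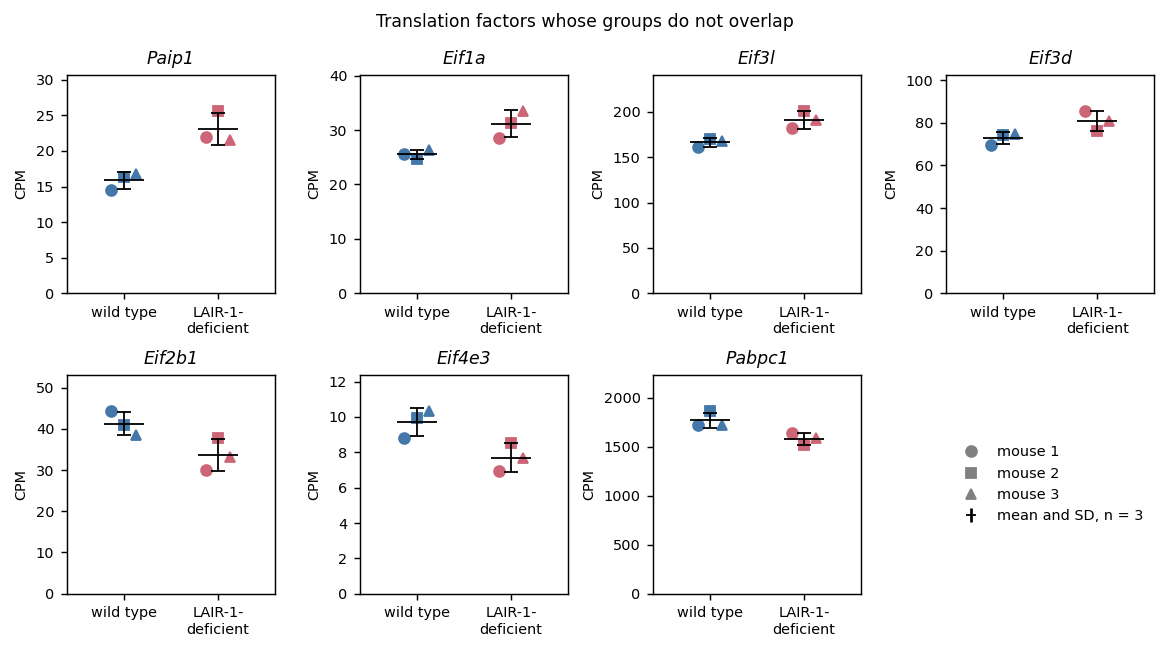
Levels in CPM (vertical axes, from 0) of the 7 translation factors whose wild type and Lair1-/- libraries do not overlap; symbols mark mouse 1, 2 and 3 and black lines the mean and SD of 3 mice. As a ratio the gap is widest for Paip1, between 16.8 and 21.6 CPM, and it is small for Eif2b1, where 38.6 CPM in wild type mouse 3 neighbours 37.7 CPM in Lair1-/- mouse 2.

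Scanning, start codon selection and related steps were taken as a role of 9 genes, with 5 fold changes above and 4 below 1. Eif1a encodes eIF1A, which with eIF1 keeps the ribosome open while it scans the leader. Its levels were 25.6, 24.6 and 26.4 CPM in wild type and 28.5, 31.3 and 33.5 CPM in Lair1-/- libraries. Each Lair1-/- value was the higher, with a fold change of 1.22 (95% interval 1.01 to 1.48). Its X-linked counterpart Eif1ax, which encodes nearly the same protein, had a fold change of 0.95 (0.80 to 1.13), at 57.4 ± 6.05 and 54.5 ± 4.08 CPM. Whether these 2 genes differ from each other in their response was not tested.

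Eif5, which triggers GTP hydrolysis on eIF2 at the start codon, was at 186, 200 and 206 CPM in wild type and 200, 198 and 232 CPM in Lair1-/- libraries, and the groups overlapped. Eif1, which guards start codon choice, had the most counts of this role. It stood at 1890, 1378 and 1339 CPM in wild type and 1777, 1310 and 1312 CPM in Lair1-/- mice 1 to 3. Mouse 1 was high in both genotypes, while the fold change was 0.95 (0.74 to 1.23). Eif5b, the GTPase that joins the ribosomal subunits, had a fold change of 1.02, and the remaining members Eif1b, Eif1ad, Eif2a and Eif2d lay between 0.92 and 1.08.

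For eIF2 and its exchange factor eIF2B, 7 of 8 fold changes were negative, beside 49.8% of all genes tested, and 1 of the 8 had an unadjusted p under 0.05, beside 3.25%. These 8 genes were given no test as a list. Eif2b1 encodes the alpha subunit of eIF2B, through which the complex senses phosphorylated eIF2. It was at 44.3, 40.9 and 38.6 CPM in wild type and 30.1, 37.7 and 33.1 CPM in Lair1-/- libraries. All Lair1-/- values were lower, by a fold change of 0.81 (95% interval 0.67 to 0.98), without a call. The other subunits of the same complex had fold changes of 0.93 for Eif2b2, 1.12 for Eif2b3, 0.97 for Eif2b4 and 0.99 for the catalytic subunit Eif2b5. Eif2b2 was at 36.6, 36.8 and 34.1 CPM in wild type and 33.6, 37.5 and 29.3 CPM in Lair1-/- libraries, with overlap. Eif2b3 varied most between mice, from 4.80 CPM in Lair1-/- mouse 2 to 9.51 CPM in Lair1-/- mouse 1.

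Among the subunits of eIF2 itself, Eif2s2 (beta) had the smallest p. It was at 120, 142 and 150 CPM in wild type and 108, 125 and 128 CPM in Lair1-/- libraries. In each genotype mouse 1 was the lowest, and the groups overlapped, with a fold change of 0.88 (0.75 to 1.03). Eif2s1 (alpha), which carries the serine that the stress kinases phosphorylate, had a fold change of 0.94 (0.80 to 1.12). Eif2s3x (gamma) was at 127, 125 and 128 CPM in wild type and 116, 113 and 131 CPM in Lair1-/- libraries, with a fold change of 0.95 (0.82 to 1.10).

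The eIF3 complex, the largest scaffold of initiation, was represented by 13 genes, of which 12 were tested. Their fold changes were positive for 7 and negative for 5, with a median log2 value of 0.03 and a range of -0.17 to 0.20. Eif3l was at 161, 170 and 168 CPM in wild type and 182, 201 and 191 CPM in Lair1-/- libraries. No library of one group reached the other, and the fold change was 1.15 (95% interval 1.01 to 1.32). Eif3d, which can itself contact the cap of some messenger RNAs, was at 69.7, 74.2 and 74.6 CPM against 85.5, 76.1 and 80.8 CPM. Its groups were apart by little, with a fold change of 1.11 (0.95 to 1.29).

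Eif3m, a subunit with a PCI domain, was at 136, 163 and 151 CPM in wild type and 127, 139 and 134 CPM in Lair1-/- libraries. These ranges overlapped, and the fold change was 0.89 (0.77 to 1.03). Eif3h had the most counts of the complex, at 351, 341 and 320 CPM against 348, 318 and 306 CPM, with a fold change of 0.96 (0.84 to 1.09). The core subunits Eif3a, Eif3b and Eif3c had fold changes of 0.97, 1.03 and 1.05, and Eif3e, Eif3f, Eif3g, Eif3i and Eif3k lay between 0.99 and 1.08. The sum of the complex was 1821, 1865 and 1813 CPM in wild type and 1959, 1822 and 1812 CPM in Lair1-/- libraries.

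The row named Eif3j2 had 1 count, in Lair1-/- mouse 1, and 0 counts in the other 5 libraries, and it was the only member that failed the filter. The table places this row on chromosome 2, where RefSeq annotates Eif3j1 with Eif3j2 among its older names. The gene now called Eif3j2 lies on another chromosome. The count of this loosely attached eIF3 subunit is therefore not interpretable as its level.

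Cap binding and unwinding, the work of eIF4F, showed 0 of 11 members at an unadjusted p under 0.05, beside 3.25% of all genes tested. A list of 11 genes is too short to tell 0 from that share. Eif4e, the cap-binding protein, averaged 62.2 ± 6.19 CPM in wild type cells, against 65.8 ± 6.75 CPM in Lair1-/- cells, with a fold change of 1.06 (0.89 to 1.26). The helicases Eif4a1 and Eif4a2 had fold changes of 0.93 (0.82 to 1.06) and 1.02 (0.89 to 1.16), and the scaffolds Eif4g1 and Eif4g3 of 0.97 and 0.99. Eif4e3, an atypical cap-binding protein, was low in all mice, at 8.83, 9.96 and 10.3 CPM against 6.92, 8.54 and 7.66 CPM. The Lair1-/- values were all lower by a narrow margin, and the interval of its fold change of 0.79 ran from 0.59 to 1.07.

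Eif4b, which stimulates eIF4A and is a target of S6 kinase, was at 426, 383 and 386 CPM in wild type and 461, 455 and 386 CPM in Lair1-/- libraries. Lair1-/- mouse 3 lay among the wild type values. Eif4g2, a relative of eIF4G that lacks the cap-binding arm, had the most counts of this role, at 607, 578 and 581 CPM against 594, 573 and 661 CPM. Its fold change was 1.03 (0.91 to 1.18). Eif4e2, a cap-binding repressor, and Eif4a3, which belongs to the exon junction complex, had fold changes of 1.03 and 1.06.

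Of the 4 proteins that bind and restrain eIF4E, 3 had a fold change below 1 and 1 above. Eif4ebp2, a repressor released from eIF4E when mTORC1 phosphorylates it, stood at 115, 98.5 and 63.3 CPM in wild type mice 1 to 3 and at 102, 73.6 and 66.3 CPM in Lair1-/- mice 1 to 3. The spread within each genotype exceeded the difference between them, and the fold change was 0.88 with an interval of 0.57 to 1.35. Its log2 fold change was -0.19 with all libraries, -0.40 without wild type mouse 3 or without Lair1-/- mouse 1, -0.07 without Lair1-/- mouse 3 and -0.01 without wild type mouse 1. Eif4ebp1, its close relative, was at 16.0, 17.6 and 17.2 CPM against 16.6, 14.2 and 15.6 CPM, and Eif4ebp3 had a fold change of 1.01. Eif4enif1, which carries eIF4E into the nucleus and into granules of stored messenger RNA, was at 21.8, 18.4 and 21.4 CPM against 17.0, 20.8 and 17.5 CPM, with overlap.

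eIF5A helps ribosomes through difficult peptide bonds and carries hypusine, an amino acid made on no other protein. Eif5a was at 1821, 1651 and 1553 CPM in wild type and 1879, 1584 and 1645 CPM in Lair1-/- libraries, a fold change of 1.02 (0.89 to 1.16). The second isoform gene Eif5a2 had the widest relative range of the members with counts in every library. It was at 15.1, 22.1 and 20.0 CPM in wild type and 9.08, 18.7 and 17.5 CPM in Lair1-/- mice 1 to 3, lowest in mouse 1 of each genotype. Its fold change was 0.79, with an interval of 0.56 to 1.11. The log2 fold change was -0.35 with all libraries, -0.09 without Lair1-/- mouse 1, -0.23 without wild type mouse 2 and -0.52 without Lair1-/- mouse 2. Eif6, which keeps free large subunits apart from small ones, was at 69.5 ± 10.7 and 70.3 ± 7.09 CPM.

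Among elongation factors, the 95% intervals of Eef1a1, Eef1b2, Eef1d, Eef1g and Eef2 excluded a 1.2-fold difference either way. Eef1a1, which brings transfer RNAs to the ribosome, was at 3013, 2850 and 2622 CPM in wild type and 3213, 2683 and 2808 CPM in Lair1-/- libraries. The groups overlapped, with a fold change of 1.03 (0.90 to 1.17). Eef1b2, part of the complex that reloads eEF1A, was at 3096, 3138 and 3053 CPM against 3325, 2917 and 2935 CPM, and its fold change was 0.99 (0.88 to 1.11). Its partners Eef1d and Eef1g had fold changes of 1.00 and 1.01, and Eef2, which moves the ribosome along, of 1.01 (0.88 to 1.17).

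Eef1e1, which sits in the multi-tRNA synthetase complex, was at 46.4, 40.2 and 46.4 CPM against 41.8, 43.9 and 41.6 CPM. Eef2k, the kinase that stops eEF2, was at 10.5, 7.22 and 9.09 CPM in wild type and 8.50, 7.65 and 6.02 CPM in Lair1-/- libraries. The ranges overlapped, and its fold change of 0.83 had an interval of 0.59 to 1.16; the log2 value was -0.41 to -0.14 with 1 library left out. Summed over the 6 genes grouped as elongation factors, Eef1e1 among them, the level was 8715, 8459 and 7919 CPM in wild type. It was 9308, 7817 and 8165 CPM in Lair1-/- libraries.

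The mice numbered 1 stood apart from the others in part of the family, in both genotypes. Both mouse 1 libraries were above the 4 others for 12 of the 58 members (20.7%, beside 11.9% of all genes tested) and below them for 4 (6.9%, beside 12.1%). Among the 12 were Eef1a1, Eef1d, Eef1g and Eef2, which are 4 of the 6 genes grouped as elongation factors. The others were the eIF3 subunits Eif3f, Eif3g and Eif3h, and Eif1, Eif5a, Eif6, Eif4ebp2 and Eif4ebp3. Eif1 had 1777 and 1890 CPM in the mouse 1 libraries and 1310 to 1378 CPM in the others. The 4 that were lower were Eif2s1, Eif2s2, Eif5a2 and Eif5b. With RLE factors the counts were 12 and 4 again, beside 12.1% and 11.9% of all genes, and with library totals alone they were 12 and 7, beside 10.4% and 13.7%. No test was made of this pattern, since it crosses the 2 genotypes and was described only.

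The same libraries differed in immediate early genes. The 5 immediate early markers (Nr4a1, Fos, Fosb, Egr1 and Cd69), which respond quickly to antigen receptor signals, summed to 3195 and 3767 CPM in the mouse 1 libraries and to 801 to 1079 CPM in the 4 others, and each of the 5 was higher in both. They were present in every library, and what raised them in mouse 1 was not tested. The part of this difference in the levels of translation factors was not tested. The sources used here do not say what the mouse number stands for beyond the animal. Both genotypes hold 1 such mouse; without mouse 1 of both groups 0 members were called and Paip1 had a log2 fold change of 0.50.

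**Figure D3:**
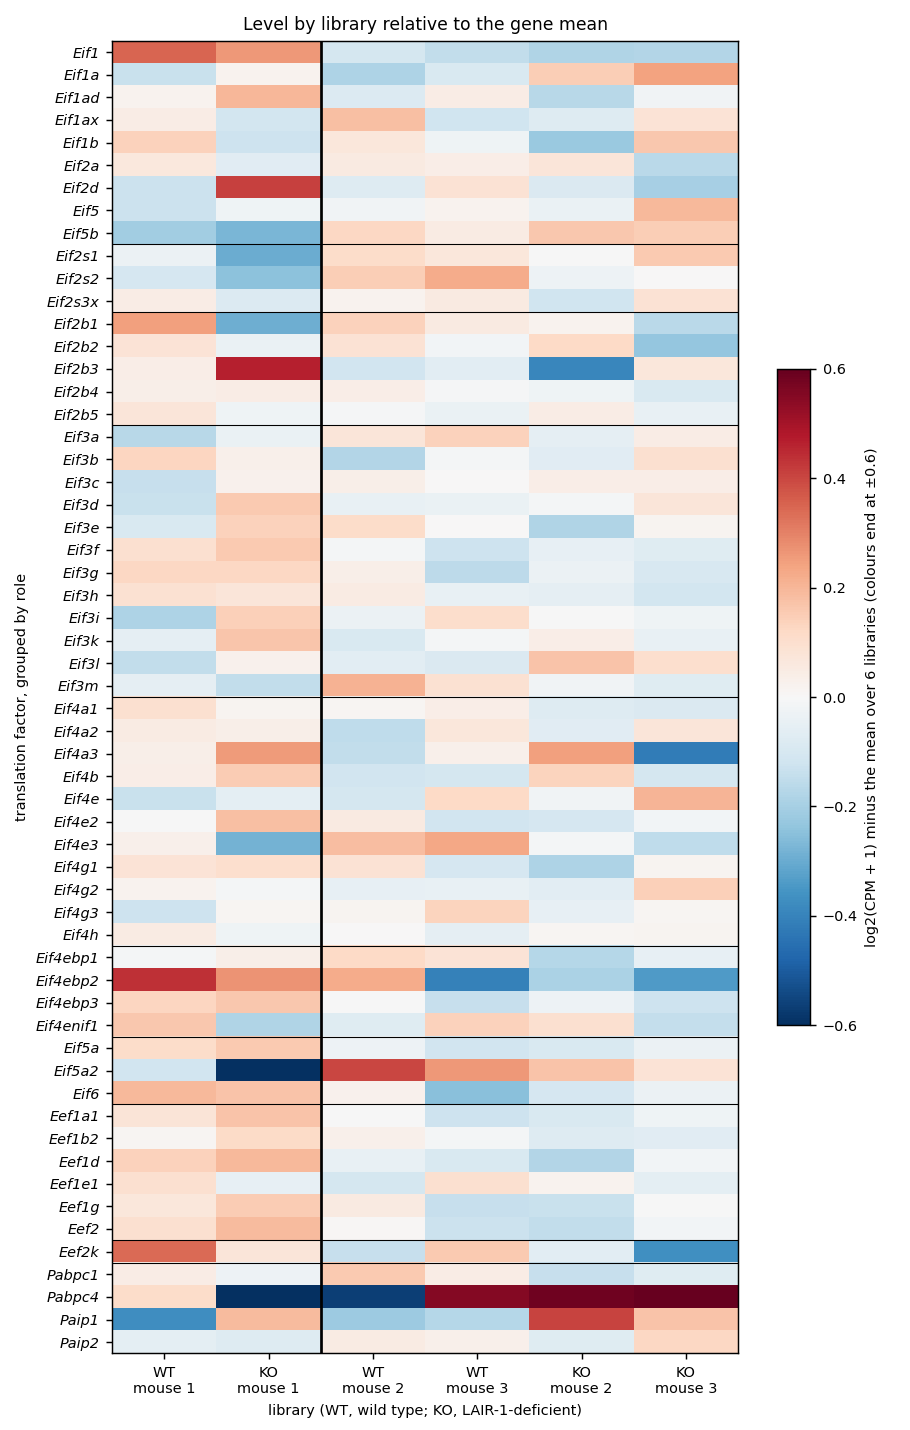
Each row is 1 of the 58 tested translation factors and each column 1 library; colour gives log2(CPM + 1) minus the mean of the gene over the 6 libraries, and lines separate the roles. The 2 mouse 1 columns at the left are red for Eif1, Eif4ebp2, Eef2 and other members that were highest there, and blue for Eif5b and Eif2s2; Pabpc4 is coloured strongly because it had few counts.

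Genes that act with the translation factors, were taken as 7 lists of 65 genes, and they too showed no call. All 65 were in the table and 62 were tested; 0 were called by edgeR over all genes tested, 28 fold changes were positive and 34 negative, and the median log2 value was -0.01. In each direction 1 of the 62 had an unadjusted p under 0.05, beside 1.81% of all genes tested for higher and 1.44% for lower, so the related genes were near the background. Gcn1l1 encodes GCN1, which activates the kinase GCN2 on stalled ribosomes. It was at 42.9, 38.4 and 33.5 CPM in wild type and 45.3, 42.7 and 50.9 CPM in Lair1-/- libraries, with overlap and a log2 fold change of 0.28. The lower gene was Atpbd4, now named Dph6, an enzyme of the diphthamide residue on eEF2. It was at 37.8, 45.4 and 45.5 CPM against 28.8, 39.5 and 32.5 CPM, with overlap and a log2 fold change of -0.36.

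Among 8 eIF2 kinases and phosphatase adaptors, 4 fold changes were positive and 4 negative, with the haem-regulated kinase Eif2ak1 at 0.20 on the log2 scale. Over the 13 genes of mTORC1 and MNK control the median was -0.01. Larp1, which binds the start of oligopyrimidine messenger RNAs, was at 0.18 on the log2 scale (95% interval -0.01 to 0.37), and Pdcd4, an inhibitor of eIF4A, at -0.12 (-0.17 to -0.05 with 1 library left out). The 7 tested genes of termination and recycling had 6 positive fold changes and a median of 0.06, with the ribosome rescue factor Hbs1l at 0.19 and the recycling factor Mcts1 at -0.18.

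The 8 tested enzymes that modify eIF5A and eEF2 had 6 negative fold changes and a median of -0.16, and 0 of them were called. Besides Atpbd4, Dohh, which completes hypusine on eIF5A, was at 12.9, 12.1 and 17.5 CPM in wild type and 10.4, 11.4 and 12.2 CPM in Lair1-/- libraries, overlapping by a narrow margin. For 7 helicases and other helpers the median was -0.05, with Paip2b, a relative of Paip2, at 0.24 (0.11 to 0.33 with 1 library left out) and the nuclear poly(A)-binding protein Pabpn1 at -0.11. The 9 mitochondrial translation factors had a median of 0.02, with the elongation factor Gfm1 at 0.33 and the initiation factor Mtif2 at -0.21. Leaving out 1 library gave 0.20 to 0.50 for Gfm1 and -0.31 to -0.11 for Mtif2. In the multi-tRNA synthetase complex, 10 genes had a median of -0.08, with the scaffold Aimp1 at -0.13 and the leucine enzyme Lars at -0.11. Groups did not overlap for 4 of the 62 genes. Every Lair1-/- library was higher for Pelo alone, beside 4.30% of all genes tested. Every Lair1-/- library was lower for Dhps, Pabpn1 and Aimp1, beside 4.09% of all genes tested. The 4 genes hold both directions, so neither share alone is the background for that count.

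**Figure D4:**
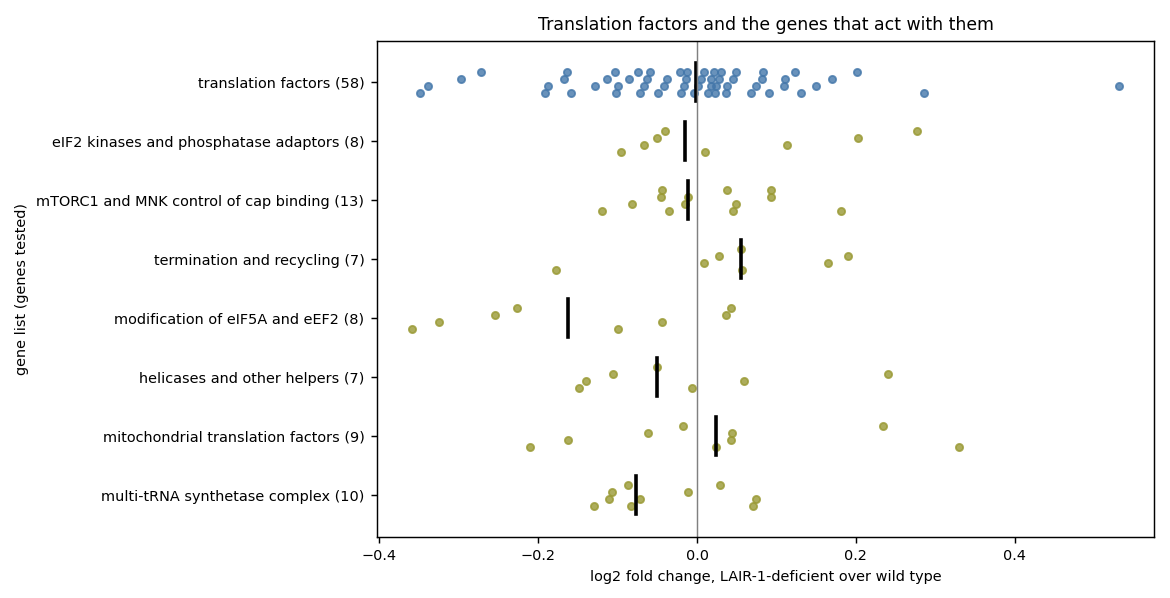
Log2 fold change (horizontal axis, Lair1-/- over wild type, 3 mice each) of the 58 translation factors and of the 62 tested genes of 7 related lists, 1 point per gene, with a black bar at each list's median. All medians lie between -0.16 and 0.06, and Paip1 is the point at the far right.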

How the data were processed

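Per the file headers, the authors deposited unnormalized read counts for each gene, with a column for every library. The submitters' processing notes name BWA and mm10; the sources used here do not give the annotation, counting tool, strand setting or use of molecular identifiers. Columns were matched to samples by description. The 4 spike-in rows, with 0 to 4 counts per library, were left out. A chi-square statistic per gene between libraries was 5.39 to 26.1, where sampling noise gives about 1, so no library repeats another.

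The test was that of edgeR 4.0.16 (R 4.3.3): filterByExpr at its default smallest count of 10, TMM scaling, a two-sided robust quasi-likelihood test, and Benjamini-Hochberg adjustment over all 9565 genes tested, with a threshold of 0.05. SE and 95% intervals were derived from the F statistic and cover the spread between these 6 mice. In this fit the spread of each gene is drawn toward the trend over all genes tested. P-values cover no other source of variation. CPM was computed from the counts, and levels of different genes were not compared, since CPM is not scaled by length. Alternatives were RLE factors, library totals alone, no filter, a smallest count of 30, DESeq2 1.42.0, limma-voom (limma 3.58.1), mouse number as a block and leaving out each library. The code was checked on simulated counts.

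Members and lists were chosen with earlier results of these data known. The text names members at an unadjusted p under 0.05, the 2 with the smallest p and the 1 with the most counts per role, members the filter left out, Lair1, and the 2 genes with the smallest p per related list; other members are given by their values after these were seen. Coordinates are from GENCODE vM21 (GRCm38), matched by symbol and chromosome for 58 of 59 members. Of these, 11 share exon sequence with another gene on the same strand and 12 with one on the opposite strand. A transcript of another gene at 95% identity or more over at least 200 bases was found for 27. The counts of all such members can hold reads of those genes. Among the members whose groups did not overlap, Eif1a, Eif3d, Eif4e3 and Pabpc1 have such a near-identical transcript.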

Additional observations from a re-analysis of the deposited data

How the results depend on the processing

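Of 14 alternative fits, 0 called a member. The number of genes called over all genes was 1 in the fit as reported, 3 with no low-count filter, 0 with the stricter filter, 0 with limma-voom, 0 without mouse 1 of both groups and 0 to 2 when 1 library was left out. Lair1 was the 1 gene; it did not pass the stricter filter, and its log2 fold change, -4.58 as reported, was -4.20 with limma-voom (adjusted p = 0.142) and -4.61 without mouse 1 of both groups (edgeR adjusted p = 0.0712). Without wild type mouse 1, where 0 genes were called, Lair1 had a log2 fold change of -4.26 (edgeR adjusted p = 0.0592). The cause of the other changes in count was not tested. Members at an unadjusted p under 0.05 numbered 4 as reported, 2 with DESeq2, and 1 to 4 when 1 library was left out, with 1 without wild type mouse 2 or Lair1-/- mouse 3. Over all genes tested, the matching counts were 311 as reported, 217 with DESeq2, and 237 to 469 when 1 library was left out. The median log2 fold change of the tested members, -0.002, ranged from -0.063 (without Lair1-/- mouse 1) to 0.016 (without wild type mouse 1).

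Of the 39 genes named by rule, 5 changed sign, each only when 1 library was left out: the log2 fold change ranged from -0.047 to 0.090 for Eef1a1, from -0.085 to 0.016 for Eef1b2, from -0.23 to 0.11 for Eif1, from -0.015 to 0.092 for Eif4g2 and from -0.058 to 0.087 for Eif5a. With mouse number as a replicate block, 5 members reached an unadjusted p under 0.05, beside 448 of 9565 genes tested. The added member was Eif5a2, and 0 members were called. Same-numbered mice did not all deviate together: the correlation of their deviations across genes was 0.290 for mouse 1, 0.00938 for mouse 2 and 0.0650 for mouse 3, and 2 of 6 libraries correlated best with their own number, so the numbers were not taken as pairs. Pabpc4 had 0 to 23 counts per library and the widest interval of the members, and 3 mice per genotype limit the differences that can pass over 9565 genes.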
